A study of Rattus norvegicus with 6 samples.

Results

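The collagen genes and the enzymes that process collagen were compared between rat endometrial epithelial organoids (rEEOs, n = 3) and rat bone marrow mesenchymal stem cells (rBMSCs, n = 3) in bulk RNA-seq. Members were chosen by gene symbol from the rows held: collagen chain genes, the prolyl and lysyl hydroxylases that the symbol pattern named, and the lysyl oxidases. The pattern also named genes for folding, propeptide removal and sugar addition. Reads of a member had to sum to 10 or more over the 6 libraries. The copy of the data analysed was cut short, and Col6a1, Col14a1, P4ha2 and Colgalt1 fit the pattern but have no row in it. The members are therefore not the whole family. Of 52 matching rows, 46 met this minimum, out of 13728 genes held, and they were 28 collagens and 18 processing enzymes. The 6 rows under the minimum were Col2a1, Col10a1, Col23a1, Col24a1, Col9a1 and Colgalt2. The rEEOs were grown from uterine gland fragments of female Sprague-Dawley rats 5 weeks old, which were kept back on a sieve meant to let stromal cells through, and were embedded in Matrigel. Their expansion medium held Wnt3a, R-Spondin-1, noggin, growth factors (EGF and FGF10), B27, N2, insulin-transferrin-selenium and nicotinamide, as well as A83-01, which inhibits TGF-beta receptors, and Y27632, which inhibits ROCK. Passages 3 to 5 were used. The rBMSCs carried a red fluorescent protein, were bought as a frozen stock, and were grown on dishes in medium with 10% fetal bovine serum. Their donors' sex and age were not given in the sources used here. Tissue, cell type, matrix, serum and inhibitor therefore all differ between the groups and cannot be told apart. Nothing says that the 3 libraries of a group came from separate animals or cultures, so p-values measure the spread between these libraries, which may be technical.

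Collagens are proteins of the extracellular matrix built from 3 chains wound into a triple helix. Fibrillar collagens form the tensile fibers of connective tissue, type IV collagen forms the sheet beneath an epithelium, fibril-associated (FACIT) collagens sit on the surface of fibers, and transmembrane collagens anchor cells. New chains are hydroxylated on proline and lysine in the endoplasmic reticulum, folded with a dedicated chaperone, trimmed of their end pieces outside the cell, and cross-linked by lysyl oxidases. Mesenchymal cells make most fibrillar collagen, whereas uterine epithelium rests on a basement membrane that epithelium and stroma build together.

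Each rBMSCs library held 14892115 to 15421501 expected counts, which RSEM estimates by sharing reads among similar transcripts, and each rEEOs library held 10457958 to 13883993. The rEEOs libraries differed more among themselves than the rBMSCs libraries. Over the 45 members tested, the SD of log2(CPM + 1) had a median of 0.356 in rEEOs compared to 0.0743 in rBMSCs. The rEEOs carried the epithelial markers Epcam, Cdh1, Krt19 and Pax8 in every library, and these had no read in rBMSCs. Foxa2, a gland marker also without a read in rBMSCs, was uneven in rEEOs, at 254, 2 and 79 counts, and was not tested. In rEEOs, 7 of 9 endometrial stroma markers (Hoxa10, Hoxa11, Pdgfrb, Dcn, Lum, Hand2 and Thy1) had no read in any library, and the summed level of that list was 171 to 297 TPM (a share of the library's transcripts, corrected for transcript length), nearly all of it Vim, compared to 7746 to 8297 TPM in rBMSCs. All 7 mesenchymal stem cell markers were read in rBMSCs, although Nt5e, which encodes the surface marker CD73, reached only 0.69 to 1.23 TPM. By the test described below, 5 of them were lower in rEEOs, and Nt5e and Cd44 were not called. Cd44 had 144, 136 and 143 TPM in rBMSCs and 98.6, 35.7 and 50.15 TPM in rEEOs. The rBMSCs also held smooth muscle markers, with Acta2 at 5584, 6332 and 6270 TPM, and the cartilage gene Acan at 488, 435 and 507 TPM, while the bone genes Bglap, Ibsp and Dmp1 stayed at or under 0.11 TPM. The 3 smooth muscle markers read summed to 0.72 to 1.08 TPM in rEEOs. Endothelial and macrophage lists stayed at or under 1.64 TPM in every library. Bulk RNA cannot tell fewer cells of a type from less RNA per cell.

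Collagen transcripts were a leading product of rBMSCs and a trace in rEEOs. The 28 collagen genes took 18.5%, 17.9% and 18.6% of all counts held in rBMSCs replicates 1, 2 and 3, and 0.0492%, 0.0540% and 0.0453% in rEEOs replicates 1, 2 and 3. Their summed level was 51523, 47329 and 52368 TPM in rBMSCs and 113, 86.0 and 76.7 TPM in rEEOs. Col1a1 ranked 1 by counts in each rBMSCs library, and 4 or 5 of the 10 most abundant genes there were collagens. In rEEOs no collagen was among the 10 most abundant genes, and Col1a1 ranked 11284, 10323 and 9989. The 18 enzymes differed less, with 1.43%, 1.47% and 1.41% of counts in rBMSCs compared to 0.216%, 0.230% and 0.273% in rEEOs. An exact permutation test of 3 libraries against 3 cannot go below p = 0.1, so these sums were given without a test.

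The make-up of the collagen also differed. Fibrillar genes made up 91.7%, 91.6% and 91.7% of the collagen TPM in rBMSCs, and 1.56%, 1.61% and 2.11% in rEEOs. Basement membrane genes made up 2.82%, 2.73% and 2.83% in rBMSCs but 93.8%, 87.5% and 94.2% in rEEOs. Neither share overlapped between the groups. Within the rEEOs total, Col18a1 alone supplied 67.7%, 63.5% and 66.5%, and the type IV chains supplied 25.8%, 24.0% and 27.1%.

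**Figure D1:**
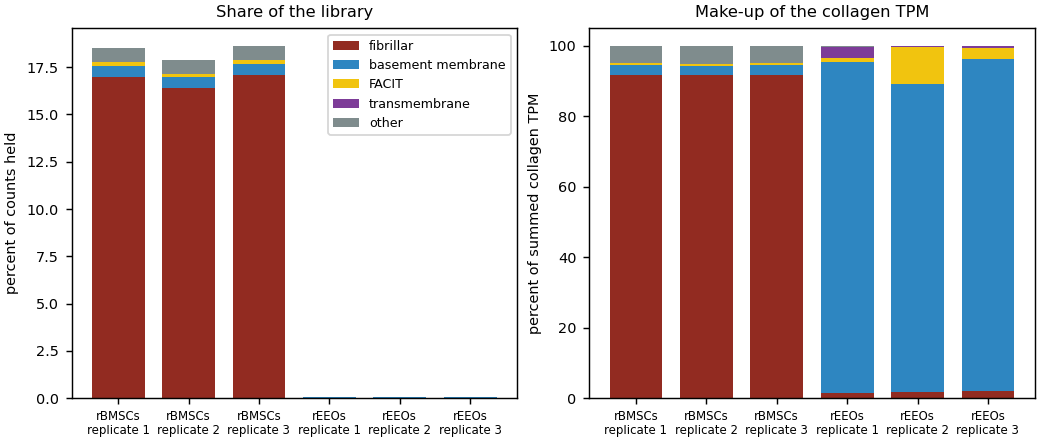
Left, percent of the counts held that each collagen class took in each of the 6 libraries; right, percent of the summed collagen TPM by class. The rBMSCs bars stand between 17.9% and 18.6% and are mostly fibrillar, while the rEEOs bars lie at or under 0.0540% and are mostly basement membrane collagen.

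For single genes, edgeR's quasi-likelihood test was run on all 10607 genes with at least 10 counts in 3 libraries, with Benjamini-Hochberg adjustment, and a gene was called when its adjusted p was below 0.05 and its log2 fold change beyond 2 in size. Of the 45 members tested, 33 were lower in rEEOs, 4 were higher (Col4a3, Col4a4, Col20a1 and P3h2) and 8 were not called. Over all genes tested, 13.3% were called lower in rEEOs and 16.3% higher, 29.7% in all. By adjusted p alone, 37 members were lower and 4 higher, beside 30.2% and 33.3% of all genes. The median log2 fold change (rEEOs minus rBMSCs, as in all values that follow) was -6.80 over the members tested and 0.08 over all genes tested. For 12 of the members tested, no rEEOs library reached 10 counts, so they passed the filter through their rBMSCs level and had to differ. The same held for 619 of all 10607 genes tested. Conversely, Col4a4 and P3h2 among the 4 called higher reached 10 counts in no rBMSCs library. They passed the filter through their rEEOs level, so their direction was fixed as well. The remaining member, Col7a1, which encodes the anchoring fibril of stratified epithelium, was too low to test, with 1, 1 and 3 counts in the rBMSCs libraries and 13, 0 and 0 in the rEEOs libraries. In TPM, all rEEOs libraries lay below all rBMSCs libraries for 38 of the 46 members and above for 3, whereas 38.4% and 31.1% of the genes tested did so.

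**Figure D2:**
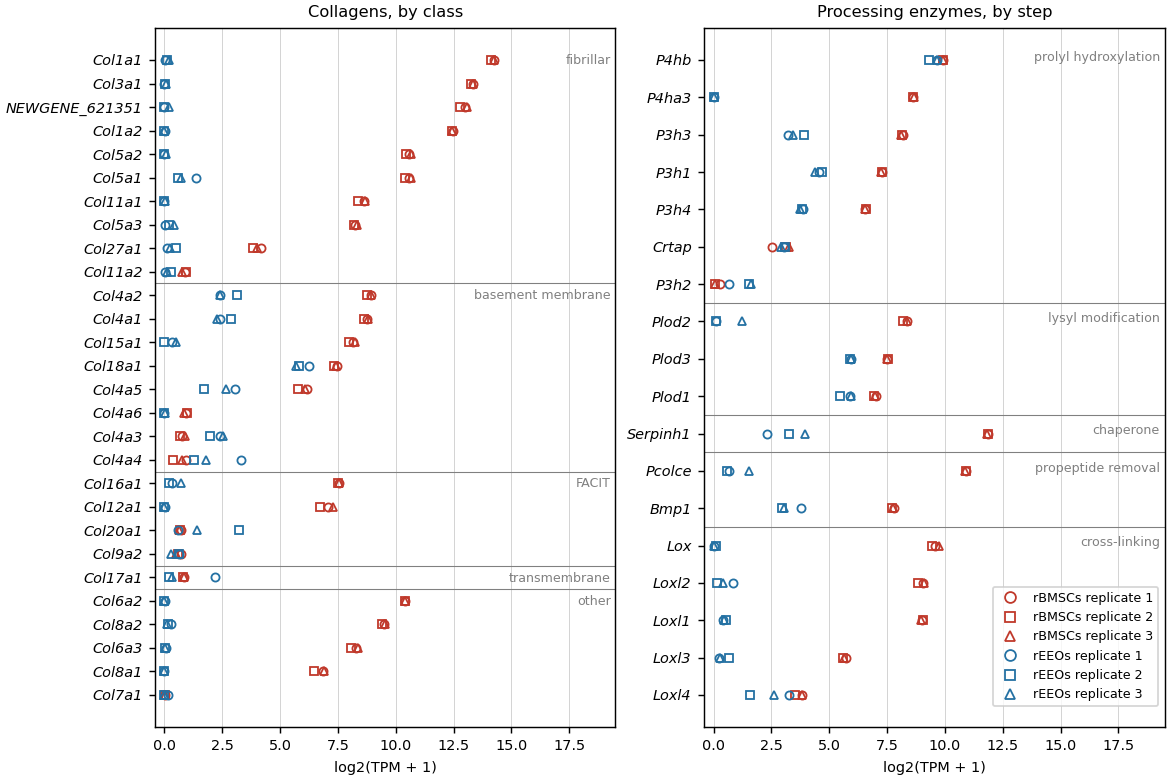
Level of each of the 46 members in each library as log2(TPM + 1), collagens by class on the left and processing enzymes by step on the right; each mark is 1 library. Most red rBMSCs marks lie far to the right of the blue rEEOs marks, while Col18a1, P4hb, Plod1 and Plod3 lie closer, and Col4a3, Col4a4 and P3h2 lie to the left in rBMSCs.

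**Figure D3:**
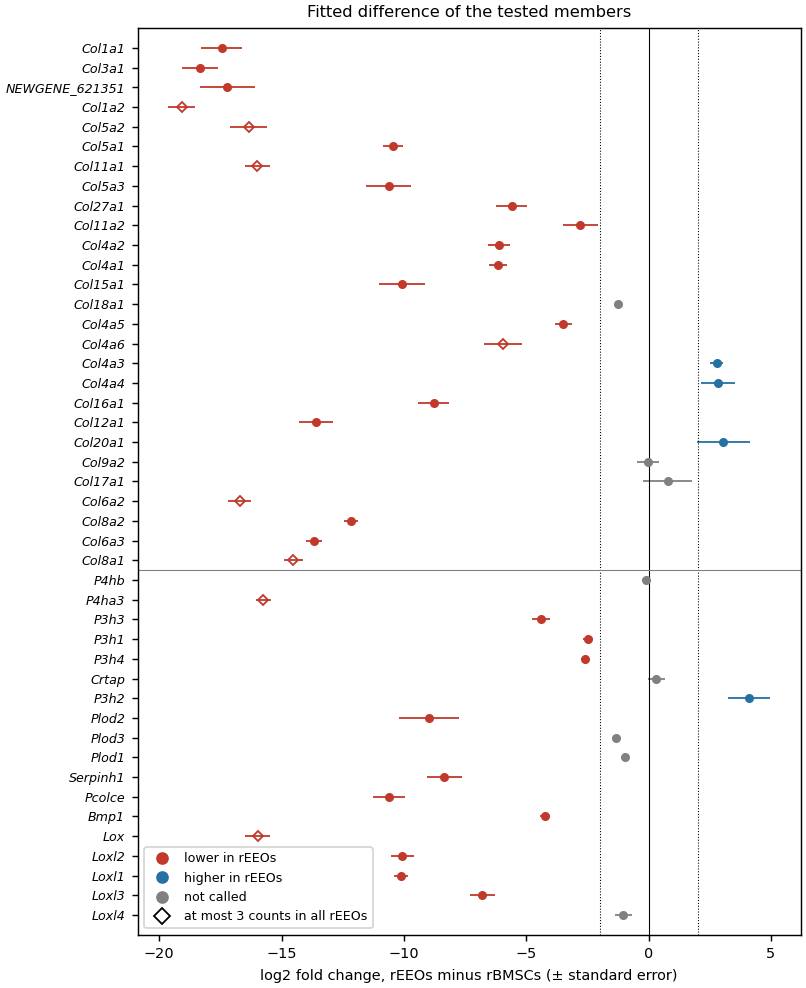
Fitted log2 fold change of the 45 tested members, rEEOs minus rBMSCs, collagens above the line and enzymes below. Bars give ± standard error as worked back from the test statistic. Dotted lines mark a log2 fold change of 2 in either direction. Of the marks, 33 are called lower, 4 higher and 8 (grey) not called, and open diamonds mark members with at most 3 counts over all rEEOs libraries, whose fitted value depends on the scale given to so few reads.

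All 10 fibrillar collagens were lower in rEEOs, with a median log2 fold change of -16.18. For 5 of these 10, no rEEOs library reached 10 counts, so their direction was fixed by the filter. Col1a1, which encodes the major chain of type I collagen, stood at 19294, 17614 and 19546 TPM in rBMSCs and had 2, 5 and 11 counts in rEEOs, or 0.03, 0.07 and 0.16 TPM. Every rBMSCs library was thus far above every rEEOs library, and the log2 fold change was -17.45 ± 0.83 (SE, adjusted p = 1.55e-05, edgeR's quasi-likelihood test). Each SE given here is the size of the fitted value divided by the square root of the test's F statistic. With few rEEOs reads it can be smaller than counting error alone. Col3a1, which encodes type III collagen, had 10366, 9677 and 10292 TPM in rBMSCs and 0, 1 and 3 counts in rEEOs, and its log2 fold change was -18.35 ± 0.74. Types I and III together supplied 84.3%, 84.5% and 84.1% of the collagen TPM of rBMSCs.

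The partner chain of Col1a1 was counted in 2 rows. Col1a2 had 5654, 5612 and 5540 TPM in rBMSCs and 1 read in all rEEOs libraries together. NEWGENE_621351, a row the files name no further, had 8144, 7101 and 8666 TPM in rBMSCs and 0, 0 and 8 counts in rEEOs. Neither row had whole counts in rBMSCs, but their sum was whole (within 0.005) in all 3 rBMSCs libraries, so the counting divided shared reads between them, with 60.4% to 65.3% of the counts given to NEWGENE_621351. How far each row was expressed on its own is therefore uncertain. The TPM of Col1a1 was 1.40, 1.39 and 1.38 times that of both rows together in rBMSCs. Added together, the rows had 2061009 counts in rBMSCs and 9 in rEEOs. Scaled to library size times edgeR's TMM factor, they were 229530 times higher in rBMSCs (95% exact interval 120910 to 501960). Their joint log2 fold change was -17.73 ± 1.02. Taken alone, the Col1a2 row was 763470 times higher (95% exact interval 137030 to 30156000). This interval, as all intervals and floors given here, covers counting error only, because the 3 libraries of each group were pooled. Polymerase copies of a molecule were not marked either.

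Minor fibrillar chains followed with the same order of groups. Col5a1 and Col5a2, which regulate the width of type I fibers, reached 1348 to 1596 and 1384 to 1611 TPM in rBMSCs. Col5a1 kept a measurable level in rEEOs, at 133, 48 and 62 counts (1.59, 0.52 and 0.65 TPM), while Col5a2 had 0, 0 and 3 counts. Their log2 fold changes were -10.44 ± 0.40 for Col5a1 and -16.35 ± 0.75 for Col5a2. Of the type V chains, Col5a1 was thus the only chain with more than 24 counts in any rEEOs library. Col5a3 had 296 to 321 TPM in rBMSCs and 1, 9 and 24 counts in rEEOs. Col11a1, a chain best known from cartilage fibers, had 326 to 410 TPM in rBMSCs and 1 read in rEEOs. Col27a1 was much lower in rBMSCs (13.2 to 16.9 TPM) and had 8, 39 and 16 counts in rEEOs, with a log2 fold change of -5.60 ± 0.63. For none of the fibrillar genes did the TPM of the groups overlap, including the least abundant. Col11a2 was low in both, at 0.71 to 0.89 TPM in rBMSCs and 0.02 to 0.21 TPM in rEEOs. Its log2 fold change of -2.79 ± 0.72 (adjusted p = 0.0147) lost its call when rEEOs replicate 3 was left out (adjusted p = 0.0595, edgeR's quasi-likelihood test). With limma on log2(TPM + 1) the value of Col11a2 was -0.73, under the fold threshold.

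The few fibrillar reads in rEEOs came unevenly from the libraries, and the fitted differences moved with them. Without rEEOs replicate 3, which held 11 of the 18 Col1a1 reads and all 8 reads of NEWGENE_621351, the log2 fold change was -18.29 for Col1a1, -19.64 for Col3a1, -19.56 for Col5a2, -11.85 for Col5a3, -17.91 for Col11a1 and -21.75 for NEWGENE_621351. Without rEEOs replicate 1 it was -20.88 for Col1a2, and without rEEOs replicate 2 it was -3.95 for Col11a2 and -6.52 for Col27a1. All of these stayed calls in the same direction.

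The 6 type IV chain genes did not move together. Col4a1, Col4a2, Col4a5 and Col4a6 were lower in rEEOs, and Col4a3 and Col4a4 were higher. The genes lie in 3 head-to-head pairs, each pair with its start sites facing away from each other, and 5 stretches between the starts are shown because the pairs were read in different proportions in the 2 groups. The sequences are RefSeq's for build GRCr8, written 5′ to 3′, and capitals mark a match to the GC box letters GGGCGG on either strand. The listed starts of Col4a1 and Col4a2 are 76 bases apart, and that whole interval is given on the plus strand at chr16:84885521-84885596, with Col4a2 leaving to its left and Col4a1 to its right.
Col4a2-Col4a1: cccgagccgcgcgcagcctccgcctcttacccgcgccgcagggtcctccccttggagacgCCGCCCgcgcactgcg
The starts of Col4a3 and Col4a4 are 412 bases apart, and the 120 bases before each start are at chr9:91323870-91323989 on the plus strand for Col4a3 and chr9:91323578-91323697 on the minus strand for Col4a4.
Col4a3: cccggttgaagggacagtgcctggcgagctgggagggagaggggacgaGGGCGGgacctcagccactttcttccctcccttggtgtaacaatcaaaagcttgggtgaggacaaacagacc
Col4a4: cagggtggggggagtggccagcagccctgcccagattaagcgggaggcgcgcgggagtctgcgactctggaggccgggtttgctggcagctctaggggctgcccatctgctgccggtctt
The starts of Col4a5 and Col4a6 are 1414 bases apart, with the 120 bases before each at chrX:109907239-109907358 on the plus strand for Col4a5 and chrX:109905945-109906064 on the minus strand for Col4a6.
Col4a5: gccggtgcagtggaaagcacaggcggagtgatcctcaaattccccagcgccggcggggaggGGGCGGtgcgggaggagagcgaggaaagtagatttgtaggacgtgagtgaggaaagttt
Col4a6: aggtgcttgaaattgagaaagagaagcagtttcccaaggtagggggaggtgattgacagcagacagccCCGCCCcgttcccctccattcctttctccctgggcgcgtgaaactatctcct
Over the windows RefSeq lists, from 250 bases before to 50 after each start, the GC box letters on either strand stood in those of Col4a1, Col4a2, Col4a3, Col4a5 and Col4a6, and in 33.1% of all 33469 windows. The letters CCAAT, searched on both strands, stood in the windows of Col4a1 and Col4a2 and in 37.5% of all, and TATAAA stood in none of the 6 and in 14.2% of all. These matches are descriptions of letters, not binding sites.

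Col4a1 and Col4a2, the chains of the basement membrane network found in nearly all tissues, were the most abundant basement membrane genes of rBMSCs. Col4a1 had 431, 391.6 and 446 TPM in rBMSCs and 4.34, 6.29 and 3.81 TPM in rEEOs, and Col4a2 had 491, 430.4 and 494 TPM compared to 4.27, 7.79 and 4.35 TPM. No library of one group reached the other for either gene, and the log2 fold changes were -6.17 ± 0.36 for Col4a1 and -6.12 ± 0.44 for Col4a2 (adjusted p = 3.06e-05 and 6.53e-05, edgeR's quasi-likelihood test). The ratio of Col4a1 to Col4a2 in TPM stayed at 0.878 to 0.910 in rBMSCs and 0.807 to 1.02 in rEEOs, while the level was 72.0-fold and 69.7-fold higher in rBMSCs in the fit.

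Col4a3 and Col4a4 encode chains that join the alpha 5 chain in the specialized basement membranes of kidney and some epithelia. Col4a3 had 0.69, 0.58 and 0.84 TPM in rBMSCs and 4.35, 2.93 and 4.80 TPM in rEEOs, so every rEEOs library was above every rBMSCs library. Its log2 fold change was 2.78 ± 0.27 (adjusted p = 0.000237, edgeR's quasi-likelihood test), and its counts were fractional in all 6 libraries, so part of its reads was shared with another transcript. Col4a4 rested on few reads, with 8, 3 and 6 counts in rBMSCs and 94, 15 and 27 in rEEOs, or 0.89, 0.31 and 0.70 TPM compared to 8.78, 1.39 and 2.51 TPM. The groups did not overlap, although rEEOs replicate 1 stood well above the other 2 rEEOs libraries. No rBMSCs library reached 10 counts, so the direction of Col4a4 was fixed by the filter. The log2 fold change of Col4a4 was 2.84 ± 0.68 (adjusted p = 0.0109), and 2.06 (adjusted p = 0.00783) without rEEOs replicate 1. Neither gene was a call with limma on log2(TPM + 1), where low levels are compressed: Col4a3 gave 1.54 (adjusted p = 0.000583), under the fold threshold, and Col4a4 gave 1.43 (adjusted p = 0.0512).

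Col4a5 had 69.9, 53.9 and 67.1 TPM in rBMSCs and 7.34, 2.27 and 5.27 TPM in rEEOs, a log2 fold change of -3.50 ± 0.34. Its neighbor Col4a6 was low in rBMSCs, at 51, 55 and 43 counts, and had 0, 0 and 2 counts in rEEOs. Scaled to library size times the TMM factor, Col4a6 was 74.7 times higher in rBMSCs (95% exact interval 20.3 to 622). Its log2 fold change was -5.96 ± 0.77 and became -8.66 without rEEOs replicate 3, which held both reads. With limma on log2(TPM + 1) the value of Col4a6 was -0.91, and the gene was not a call.

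The make-up of the type IV total differed accordingly. Of 994, 878 and 1010 type IV TPM in rBMSCs, Col4a1 and Col4a2 supplied 92.7%, 93.7% and 93.1%. Of 29.1, 20.7 and 20.8 TPM in rEEOs they supplied 29.6%, 68.1% and 39.3%. Col4a3, Col4a4 and Col4a5 together supplied 7.19%, 6.24% and 6.79% in rBMSCs and 70.4%, 31.9% and 60.6% in rEEOs, nearly all of it Col4a5 in rBMSCs. The rEEOs libraries varied widely in these shares, but none fell within the rBMSCs range. Col4a4 alone supplied 30.2%, 6.72% and 12.1% in rEEOs, from 94, 15 and 27 counts. In rEEOs replicate 1 those 94 counts gave 8.78 TPM, whereas 350 counts of Col4a1 gave 4.34 TPM. TPM thus gave each Col4a4 read more weight, and the shares lean on few reads. Per length, Col4a3 stood at 1.00, 0.466 and 1.26 times Col4a1 in rEEOs and at no more than 0.0019 times in rBMSCs.

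**Figure D4:**
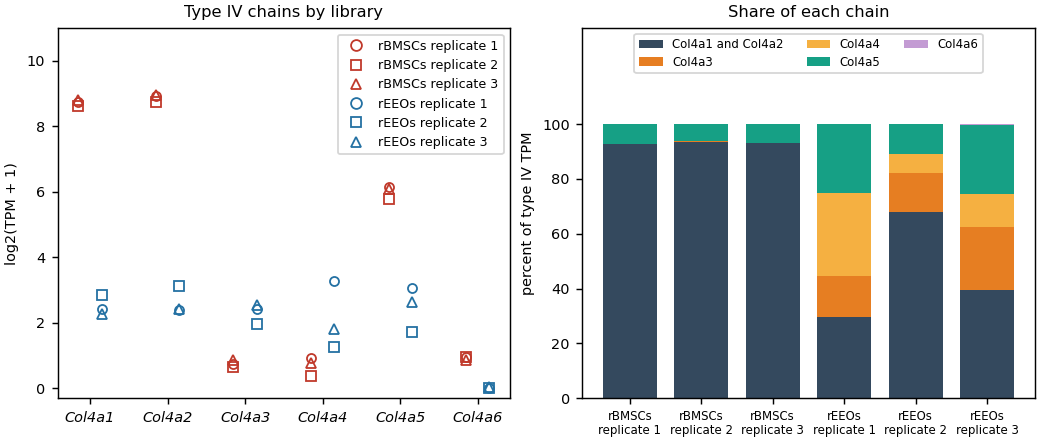
Left, level of the 6 type IV chain genes in each library as log2(TPM + 1); right, percent of the summed type IV TPM by chain. In rBMSCs Col4a1 and Col4a2 make up at least 92.7% of the total, and in rEEOs Col4a3, Col4a4 and Col4a5 take between 31.9% and 70.4%. The Col4a4 part in rEEOs rests on 15 to 94 counts per library.

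Of the other basement membrane collagens, Col18a1 was the collagen with the highest level in rEEOs. It encodes the multiplexin that carries endostatin at its end, and it had 76.2, 54.6 and 51.0 TPM in rEEOs compared to 174, 160 and 170 TPM in rBMSCs. The groups did not overlap, and the log2 fold change was -1.24 ± 0.13 (adjusted p = 0.000301, edgeR's quasi-likelihood test), which passed the p threshold but not the fold threshold. The related multiplexin Col15a1 was nearly absent from rEEOs. It had 283, 254 and 300.1 TPM in rBMSCs and 15.9, 0 and 25 counts in rEEOs, with a log2 fold change of -10.08 ± 0.93, and -10.99 without rEEOs replicate 3.

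Among the 4 FACIT collagens, Col12a1 and Col16a1 were lower in rEEOs. Col16a1 had 186, 180 and 189 TPM in rBMSCs and 0.26, 0.13 and 0.63 TPM in rEEOs, a log2 fold change of -8.79 ± 0.64. Col12a1, which coats type I fibers, had 134, 106 and 156 TPM in rBMSCs and 4, 0 and 0 counts in rEEOs, a log2 fold change of -13.59 ± 0.69. Leaving out the library that held the most reads gave -17.02 for Col12a1 (rEEOs replicate 1) and -9.72 for Col16a1 (rEEOs replicate 3).

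Col20a1 was called higher in rEEOs, but on the strength of a single library. Its counts were 42, 42 and 35 in rBMSCs and 41, 693 and 132 in rEEOs, so the groups overlapped and rEEOs replicate 2 stood far above the rest. The log2 fold change of 3.04 ± 1.09 (adjusted p = 0.0466, edgeR's quasi-likelihood test) became 1.19 (adjusted p = 0.150) without rEEOs replicate 2. The call was also lost on leaving out any rBMSCs library (adjusted p = 0.115 to 0.123) or rEEOs replicate 3 (adjusted p = 0.0626), and with limma on log2(TPM + 1) (adjusted p = 0.181). Col9a2, a cartilage chain, was low in both groups, with 19, 15 and 11 counts in rBMSCs and 19, 18 and 7 in rEEOs. Its log2 fold change was -0.03 ± 0.44 (adjusted p = 0.955), and no difference was detectable at this depth.

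Col17a1, the transmembrane collagen of the hemidesmosomes that fasten basal epithelial cells, was not called. It had 0.79, 0.74 and 0.81 TPM in rBMSCs and 3.54, 0.15 and 0.26 TPM in rEEOs. Replicate 1 of rEEOs was above all rBMSCs libraries and the other 2 were below them. The log2 fold change was 0.77 ± 1.01 (adjusted p = 0.527, edgeR's quasi-likelihood test). Leaving out rEEOs replicate 1 turned it to -1.55 (adjusted p = 0.00314).

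The type VI and type VIII chains were lower in rEEOs, 4 of 4 tested. For 3 of these, no rEEOs library reached 10 counts, so their direction was fixed by the filter. Col6a2, a chain of the beaded filaments around cells, had 1365, 1336 and 1364 TPM in rBMSCs and 1 read in rEEOs. Scaled to library size times the TMM factor, it was 146700 times higher in rBMSCs (95% exact interval 26329 to 5794400). Its partner Col6a3 was likewise read a few times at most in each rEEOs library. Col6a3 had 315, 266 and 327 TPM in rBMSCs and 4, 1 and 2 counts in rEEOs, with a log2 fold change of -13.68 ± 0.34. The network-forming chain Col8a2 had 721, 684 and 733 TPM in rBMSCs and 10, 6 and 4 counts in rEEOs, and its log2 fold change was -12.15 ± 0.29. Col8a1 had 113, 88.8 and 120.02 TPM in rBMSCs and no read in rEEOs, which made it at least 2931-fold higher in rBMSCs, taking 3 counts over the 3 rEEOs libraries as the most that a count of 0 allows.

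Of the 18 processing enzymes, 12 were lower in rEEOs, 1 was higher and 5 were not called, with a median log2 fold change of -4.32. Over all genes tested, 13.3% were lower and 16.3% higher. Lox and P4ha3 reached 10 counts in no rEEOs library, and P3h2, the 1 higher, in no rBMSCs library, so their direction was fixed by the filter. The summed level of the 18 enzymes was 10308, 10162 and 10257 TPM in rBMSCs and 1012, 826 and 999 TPM in rEEOs. Most of the rEEOs total was P4hb, protein disulfide isomerase, which is the beta subunit of prolyl 4-hydroxylase and also folds other secreted proteins. P4hb made up 9.41% to 9.52% of the enzyme TPM in rBMSCs and 77.9% to 80.3% in rEEOs. Without it the sums were 9338, 9194 and 9286 TPM compared to 199, 182 and 202 TPM.

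Of the prolyl 4-hydroxylase genes among the members, P4hb was not called and P4ha3 was lower in rEEOs. P4hb had 970.1, 967 and 971 TPM in rBMSCs and 813, 644 and 797 TPM in rEEOs. Every rEEOs library was below rBMSCs in TPM, but with TMM scaling of the counts the log2 fold change was -0.11 ± 0.17 (adjusted p = 0.584, edgeR's quasi-likelihood test). Its direction depended on the scaling, at 0.26 with library size alone and -0.38 (adjusted p = 0.0362) with limma on log2(TPM + 1), and it was 0.01 without rEEOs replicate 1. Library size alone moved the median of all genes from 0.08 to 0.46. P4ha3, a catalytic alpha subunit, had 390, 399 and 399 TPM in rBMSCs and no read in rEEOs, which made it at least 6882-fold higher in rBMSCs. The alpha subunit P4ha1, which the symbol pattern did not take in, had 349, 324 and 351 TPM in rBMSCs and 109, 173 and 124 TPM in rEEOs, and its log2 fold change of -1.01 ± 0.31 fell short of the fold threshold (adjusted p = 0.0265).

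Of the prolyl 3-hydroxylase family, P3h1, P3h3 and P3h4 were lower in rEEOs and P3h2 was higher. P3h1, the enzyme that modifies type I collagen in a complex with Crtap, had 153, 154 and 149 TPM in rBMSCs and 22.8, 25.1 and 20.1 TPM in rEEOs, a log2 fold change of -2.47 ± 0.20. P3h3 and P3h4, which act with lysyl hydroxylation, had log2 fold changes of -4.42 ± 0.37 and -2.60 ± 0.16. P3h2, whose product is known to modify type IV collagen, was higher in rEEOs, from 4.61, 1 and 1 counts in rBMSCs to 15.7, 48.6 and 53.3 in rEEOs. No rBMSCs library reached 10 counts, so the direction of P3h2 was fixed by the filter. The groups did not overlap, and edgeR's quasi-likelihood test gave a log2 fold change of 4.12 ± 0.86 (adjusted p = 0.00611). Leaving out rBMSCs replicate 1 raised it to 5.23. At 0.60, 1.85 and 2.03 TPM in rEEOs it was still a weakly read gene, and with limma on log2(TPM + 1) its value of 1.13 was under the fold threshold. Crtap did not differ detectably, with 26.3, 46.2 and 46.5 counts in rBMSCs and 49.1, 51.8 and 44.0 in rEEOs (log2 fold change 0.31 ± 0.34, adjusted p = 0.449). Its counts were fractional in all 6 libraries, so reads were shared with another transcript.

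Of the 3 lysyl hydroxylases, Plod2 was lower in rEEOs, and Plod1 and Plod3 were not called. Plod2, which hydroxylates the telopeptides that form stable cross-links, had 325, 288 and 331 TPM in rBMSCs and 3, 3 and 58 counts in rEEOs. Replicate 3 of rEEOs held nearly all its rEEOs reads, and the log2 fold change of -8.98 ± 1.23 (adjusted p = 0.000998, edgeR's quasi-likelihood test) became -11.90 without it. The other lysyl hydroxylases kept a clear level in rEEOs. Plod1 had 129, 122 and 125 TPM in rBMSCs and 59.3, 43.0 and 60.0 TPM in rEEOs. Plod3, which also adds sugars to hydroxylysine, had 182, 183 and 179 TPM in rBMSCs and 60.0, 58.4 and 60.3 TPM in rEEOs. Both lay lower in every rEEOs library, with log2 fold changes of -0.96 ± 0.16 for Plod1 and -1.34 ± 0.17 for Plod3 (adjusted p = 0.00239 and 0.000720), under the fold threshold.

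Serpinh1, the collagen-specific chaperone HSP47, was the most abundant enzyme-group gene of rBMSCs, at 3777, 3763 and 3668 TPM. In rEEOs it had 3.97, 8.48 and 14.6 TPM, all far below, and the log2 fold change was -8.35 ± 0.71 (adjusted p = 0.000129, edgeR's quasi-likelihood test). Both propeptide removal genes were lower as well. Pcolce, which enhances the procollagen C-proteinase, had 1901, 1955 and 1875 TPM in rBMSCs and 0.58, 0.51 and 1.86 TPM in rEEOs, a log2 fold change of -10.63 ± 0.66. Without rEEOs replicate 3 it was -11.57. Bmp1, the C-proteinase itself, had 222, 211 and 217 TPM in rBMSCs and kept 12.9, 6.87 and 7.34 TPM in rEEOs, a log2 fold change of -4.23 ± 0.20.

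Of the 5 lysyl oxidases, which start the cross-linking of collagen and elastin, 4 were lower in rEEOs. Lox had 760, 700 and 854 TPM in rBMSCs and 1 read in rEEOs. Scaled to library size times the TMM factor, it was 89260 times higher in rBMSCs (95% exact interval 16020 to 3525600). Loxl1 and Loxl2 had 494 to 524 and 451 to 555 TPM in rBMSCs and at most 12 and 19 counts in rEEOs, with log2 fold changes of -10.13 ± 0.29 and -10.06 ± 0.48. All of these were read at a trace in rEEOs. Loxl3 was less abundant, at 47.9 to 51.9 TPM in rBMSCs and 0.17 to 0.59 TPM in rEEOs (log2 fold change -6.80 ± 0.51). Without a library, Loxl2 gave -10.66 (rEEOs replicate 1) and Loxl3 -7.64 (rEEOs replicate 2). Loxl4 was the lysyl oxidase retained in rEEOs. It had 13.2, 10.6 and 13.4 TPM in rBMSCs and 8.58, 2.01 and 5.02 TPM in rEEOs, below rBMSCs in every library. Its log2 fold change was -1.04 ± 0.36 (adjusted p = 0.0404, edgeR's quasi-likelihood test), which was not a call.

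Genes that work with collagen were taken from 6 lists of 76 genes, of which 58 were held and 51 tested. Of these, 27 were lower in rEEOs, 3 were higher and 21 were not called, to be read against 13.3% and 16.3% of all genes. By adjusted p alone, 38 were lower and 7 higher, beside 30.2% and 33.3% of all genes. Of 6 receptors tested, 4 were lower, among them Ddr2 (log2 fold change -10.56 ± 0.45), a kinase receptor of fibrillar collagen. Itga11, the integrin chain of mesenchymal cells for type I collagen, had 384, 353 and 367 TPM in rBMSCs and 1 read in rEEOs. The 2 higher receptors, Ddr1 and Itga2, are known from epithelia. Ddr1 had 29.4, 27.9 and 29.1 TPM in rBMSCs and 171, 81.9 and 114 TPM in rEEOs (log2 fold change 2.25 ± 0.17), and Itga2 had 13, 7 and 20 counts in rBMSCs and 1307, 166 and 146 in rEEOs (5.12 ± 0.96). The shared integrin chain Itgb1 had 1320, 1228 and 1407 TPM in rBMSCs and 322, 148 and 177 TPM in rEEOs (-2.42 ± 0.22).

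Of 17 genes for folding and export of procollagen, 12 were not called, 4 were lower and 1, the ion channel gene Tmem38b, was higher (log2 fold change 2.05 ± 0.21). Calls in either direction were thus near the share over all genes tested, 29.7%. By adjusted p alone, 10 were lower and 3 higher, so most of the uncalled genes missed only the fold threshold. Tmem38b had 4.68, 4.71 and 4.32 TPM in rBMSCs and 16.1, 17.4 and 13.6 TPM in rEEOs. Sparc, a collagen-binding secreted protein, had 7897, 7963 and 7948 TPM in rBMSCs and 1, 0 and 16 counts in rEEOs. Ppib, the prolyl isomerase cyclophilin B, had 816, 879 and 790.1 TPM in rBMSCs and 586, 482 and 582 TPM in rEEOs, and its log2 fold change of -0.31 ± 0.17 had an adjusted p of 0.148 in edgeR's quasi-likelihood test. All 8 fibril-binding genes tested were lower, with Thbs1 at 3131 to 3743 TPM in rBMSCs and 6.17 to 10.1 TPM in rEEOs, and Bgn (biglycan) at 3276 to 3439 and 0.37 to 0.59 TPM.

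Of 3 other propeptidases tested, Adamts2, the N-proteinase, and Tll1 were lower in rEEOs. Tll1 had 70.5, 61.2 and 72.3 TPM in rBMSCs and no read in rEEOs, at least 3272-fold. Furin, a general proprotein convertase, went the other way without being called, at 79.1 to 83.3 TPM in rBMSCs and 109 to 262 TPM in rEEOs (log2 fold change 1.24 ± 0.21). Of 7 collagen breakdown genes tested, 4 were lower and 3 were not called. Timp2, an inhibitor of collagen-degrading metalloproteinases, had 462 to 480.3 TPM in rBMSCs and 30.4 to 50.3 TPM in rEEOs (-3.37 ± 0.14), and Timp1 had 290.0 to 316 and 88.6 to 113 TPM (-1.24 ± 0.16, not called).

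Of 10 genes tested from a list for TGF-beta, a main inducer of fibrillar collagen, 5 were lower in rEEOs and 5 were not called. By adjusted p alone, 9 were lower and 0 higher. The list mixes ligands, a receptor, signal transducers and response genes, so its count is no measure of the response alone. Among the pathway parts, the ligands Tgfb1 and Tgfb3 were lower, and the ligand Tgfb2, the receptor Tgfbr1 and the transducers Smad2 and Smad3 were not called. Tgfb2, Tgfbr1 and Smad2 missed only the fold threshold (log2 fold changes -1.38, -0.97 and -0.96). Their adjusted p was 0.00247, 0.0312 and 0.00812 in edgeR's quasi-likelihood test, and that of Smad3 was 0.0937 (-0.44). Tgfb3, a ligand, had 242, 255 and 279 TPM in rBMSCs and 0.94, 0.37 and 0.36 TPM in rEEOs (-8.67 ± 0.33). Of the response genes, named after their values were seen, Smad7 and Tgfbi were lower (-2.43 ± 0.24 and -5.93 ± 0.46) and Skil was not called (-1.91 ± 0.25). Skil also missed only the fold threshold, with an adjusted p of 0.000833 in edgeR's quasi-likelihood test. Only the rEEOs medium held an inhibitor of TGF-beta receptors. The part of the inhibitor in the collagen differences was not tested, and neither was that of the smooth muscle and cartilage genes read in rBMSCs.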

How the data were processed

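RNA from 3 rEEOs and 3 rBMSCs samples was sequenced by the authors as poly(A)-selected single-end libraries on a BGISEQ platform. Per the study's methods and the submitters' processing notes, reads were trimmed with Trim Galore, aligned with Bowtie2 2.2.5 to a rat genome (Rnor_6.0) and quantified with RSEM. A library protocol that keeps strand was not named. In the deposited table every gene has a TPM, an FPKM and an RSEM expected count (not normalized) per library, and the authors' TPM was used for levels. The copy analysed ends within its last row (23 of 27 fields). It holds 13728 genes with 81.3% to 82.7% of each library's TPM, so shares are of the genes held. FPKM, a constant multiple of TPM in each library, was not used. The authors' group averages were not used.

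After rounding of the expected counts, edgeR 4.0.16 in R 4.3.3 was run on 10607 genes, those reaching 10 counts in 3 or more libraries (TMM factors of 0.866 to 0.885 in rBMSCs and 1.10 to 1.19 in rEEOs, glmQLFit, glmQLFTest, Benjamini-Hochberg adjustment over all genes, no block). The test was checked on simulated data with a log2 fold change of 3 and the same spread assumed in both groups. That check does not cover members with few or no rEEOs reads, or the wider spread of the rEEOs libraries. Exact 95% intervals and floors compare summed counts between groups scaled to library size times the TMM factor. Members, classes and companion lists were chosen with earlier results of these data known. Values in every library are given for the 3 most abundant members of each class in each group (at least 1 TPM in rEEOs). They are also given for members called higher or not called. In each companion list they are given for the 2 most abundant genes and those called against the direction of most calls. Companion genes of opposite sign that were not called, such as Pepd, Timp3 and Klhl12, were left out unless among those 2. Other genes named in passing follow their class. The values of 1 companion gene are not reported here. Alternatives used DESeq2 1.42.0, limma 3.58.1, other scalings, filters and thresholds, each library left out, and the replicate number as a block. By gene ID, 45 of the 46 members were matched to RefSeq, and 38 had a promoter window. Those sequences come from build GRCr8, used for sequence only, and no coordinates of Rnor_6.0 are given. Tables were handled in pandas 2.3.3 and intervals computed in scipy 1.17.1 (Python 3.11.15).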

Additional observations from a re-analysis of the deposited data

How the results depend on the processing

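Over 17 alternatives (each left-out library counted as 1), 32 of the 45 members tested kept both direction and call in each that gave them a value (30 of them in all 17, since 8 members had no value of their own in 1 alternative), and 36 did so in those that kept the fold threshold, 31 of the 33 called lower among them. On leaving out each library in turn, all genes called numbered 3015 to 3488 (3145 with all libraries), members called lower 32 to 33, members called higher 3 to 4, collagens called lower 20 to 21, processing enzymes called lower 12 in each, and companion genes called 29 to 31. Members called higher fell to 1 with a filter of 50 counts in 3 libraries, because Col4a4, Col20a1 and P3h2 did not pass it and were not tested. With limma on log2(TPM + 1) they fell to 0, and the cause of that fall was not tested. With limma, members called lower were 31 and collagens called lower 19, without Col11a2 and Col4a6. All genes called rose to 4950 with a log2 fold threshold of 1 and to 6727 with none, by construction. The direction reversed for Col9a2 with library size alone (0.34), without rBMSCs replicate 1 (0.17) and without rEEOs replicate 3 (0.27; range over the left-out libraries -0.32 to 0.27), for Col17a1 without rEEOs replicate 1 (-1.55; range -1.55 to 1.302), and for P4hb with library size alone (0.26) and without rEEOs replicate 1 (0.00629; range -0.23 to 0.00629). The cause was not tested. With Col1a2 and NEWGENE_621351 added together as 1 gene, 32 members were called lower. Members at 0 to 3 counts in rEEOs are limited by depth, and their fitted values depend on the handling of so few reads.

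The labels give the groups the same replicate numbers, but deviations of same-numbered libraries correlated at 0.132, 0.146 and -0.110, so the numbers were not taken to pair samples. With the replicate number as a block, all genes called numbered 3231, with 33 members lower, 3 members higher, 21 collagens lower, 12 enzymes lower and 30 companion genes. Under the block Col20a1 lost its call (2.06, adjusted p = 0.104 in edgeR's quasi-likelihood test), Col17a1 reversed to -0.33, and no other member's call changed. Not every library correlated best with its own number.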
